A study of Mus musculus with 10 samples.

Results

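Broad non-promoter peaks are stretches of open chromatin at least 500 bp wide that the deposited annotation places outside promoters, in introns, exons, untranslated regions, downstream of genes or between genes. They number 1334 of 39023 non-promoter peaks and of 61571 annotated nuclear peaks in ATAC-seq libraries of naive CD4 T cells, and the 37689 narrower non-promoter peaks are what they are set against here. The cells were sorted from mouse spleen and lymph node as CD3+CD4+CD25-CD44low/-CD62L+, 60000 per library. All 10 libraries share the genotype Satb1fl/fl x CD4-CreERT2wt/+, in which a tamoxifen-dependent Cre recombinase driven by CD4 can delete the floxed Satb1 alleles. The 5 KO libraries (Sample_2268_KO to Sample_2272_KO) are from mice given tamoxifen, and the 5 WT libraries (Sample_2273_WT to Sample_2277_WT) are from untreated mice. No WT library was made from tamoxifen-treated mice, so effects of the drug and of the deletion cannot be told apart. The labels give no age, sex, litter or batch and do not say whether libraries came from separate animals, so p-values measure only the spread between libraries.

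In ATAC-seq a transposase cuts DNA that nucleosomes do not cover, and peaks of cuts mark promoters, enhancers and insulators. Away from promoters, a wide peak can cover several neighbouring factor-bound sites or a displaced run of nucleosomes, as at strong enhancers, or a transcription start that the annotation used for naming did not count as a promoter. SATB1, the protein encoded by Satb1, is a nuclear organiser of thymocytes and T cells that binds AT-rich DNA and tethers chromatin loops.

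Some of these peaks lie over the start of a gene in RefSeq, although the deposited annotation calls them distal, intronic or exonic. RefSeq (build GRCm38.p6) places at least 1 transcription start inside 183 of the 1334 broad peaks (13.7%) and inside 501 of the 37689 narrower ones (1.33%). The stretches below are the bases before such starts that lie inside the peak, written 5′ to 3′ on the gene's strand, with every CpG dinucleotide in capitals. They are shown because broad peaks with and without a start differed in how often they were called. Gm13572, on the plus strand at chr2:60037035-60037140, lies in the one broad peak with a start that changed in KO. The other 4 lie in the uncalled broad peaks with a start that had the highest level outside UTRs, and were picked after their values were seen: Gm51814 (chr10:19062529-19062778, plus strand), D130051D11Rik (chr15:85634376-85634595, plus), Gm2885 (chr17:6828017-6828266, minus) and Gm26901 (chr1:7398097-7398346, minus). RefSeq lists all 5 as long non-coding RNAs.
Gm13572: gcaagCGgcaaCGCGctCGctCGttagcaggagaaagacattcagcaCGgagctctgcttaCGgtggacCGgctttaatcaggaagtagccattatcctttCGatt
Gm51814: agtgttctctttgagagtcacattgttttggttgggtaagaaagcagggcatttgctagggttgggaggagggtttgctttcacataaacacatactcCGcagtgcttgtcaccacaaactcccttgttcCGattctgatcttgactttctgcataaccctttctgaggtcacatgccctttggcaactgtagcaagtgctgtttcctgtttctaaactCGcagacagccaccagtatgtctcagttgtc
D130051D11Rik: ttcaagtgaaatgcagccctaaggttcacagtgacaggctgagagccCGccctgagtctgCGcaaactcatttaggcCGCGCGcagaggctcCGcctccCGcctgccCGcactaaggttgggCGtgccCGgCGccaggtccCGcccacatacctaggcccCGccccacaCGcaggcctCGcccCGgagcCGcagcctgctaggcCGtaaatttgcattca
Gm2885: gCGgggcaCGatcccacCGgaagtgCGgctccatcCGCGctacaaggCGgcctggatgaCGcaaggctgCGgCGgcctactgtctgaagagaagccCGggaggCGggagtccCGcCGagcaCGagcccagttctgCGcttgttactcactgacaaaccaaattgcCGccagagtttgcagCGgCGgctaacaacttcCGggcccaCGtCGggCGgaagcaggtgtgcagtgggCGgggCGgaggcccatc
Gm26901: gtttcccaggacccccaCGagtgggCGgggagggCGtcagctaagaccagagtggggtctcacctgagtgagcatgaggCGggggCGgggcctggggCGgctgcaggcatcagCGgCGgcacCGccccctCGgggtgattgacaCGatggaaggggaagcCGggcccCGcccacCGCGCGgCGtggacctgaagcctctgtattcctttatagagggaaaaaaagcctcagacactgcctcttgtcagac

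The Gm13572 stretch holds 9 CpG in 106 bases. Gm51814 has 3 in 250 bases and a GC content of 46.4%, whereas D130051D11Rik has 18 in 220 bases and 65.5%, Gm2885 25 in 250 bases and 66.8%, and Gm26901 17 in 250 bases and 66.0%. Over the whole 300-base RefSeq windows (250 before to 50 after the start), the 228 windows whose start lies in a broad non-promoter peak had a median of 20 CpG, a GC content of 63.0% and an observed-to-expected CpG ratio of 0.724. Those in narrower non-promoter peaks had 10 CpG, 55.0% and 0.460 (561 windows), those in promoter peaks 23, 62.3% and 0.819 (9789 windows), and all 32851 windows 7, 52.7% and 0.384. By base composition the starts in broad non-promoter peaks thus lay near those in promoter peaks, and 76.3% of them belong to coding genes. The letters GGGCGG, searched on both strands, occurred in 66.7% of the windows in broad peaks, 41.0% in narrower peaks, 70.9% in promoter peaks and 35.7% of all. CCGGAA occurred in 28.1%, 12.3%, 33.9% and 14.9%, and TATAAA in 5.26%, 9.27%, 5.47% and 13.6%, in the same order. No motif of the 3 contains another, though matches may share bases, and a match only describes the window.

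In-peak counts totalled 673398 to 2184717 per library, and the median broad peak held 30 to 100 counts per library. Some libraries of the same group differed by no more than Poisson noise over the tested peaks: 6 of the 20 pairs, namely Sample_2268_KO with Sample_2270_KO, Sample_2271_KO with Sample_2272_KO, Sample_2274_WT with Sample_2275_WT, and each pair among Sample_2273_WT, Sample_2276_WT and Sample_2277_WT. Their totals and values are not identical, but whether they are repeat runs of the same material was not tested. If they are, n = 5 overstates the number of independent samples per group. All 10 are kept as libraries, and counts of calls are also given with such libraries merged to 3 KO and 2 WT libraries. CD4 T cell markers had promoter peaks at 7 of 7 genes (sum 375 to 407 CPM in KO, 382 to 420 CPM in WT), and B cell markers at 0 of 6. Of CD8 T cell markers 1 of 2 had one (20.2 to 31.7 CPM in KO, 23.7 to 30.4 CPM in WT), of myeloid markers 2 of 6 (13.3 to 31.2 CPM in KO, 19.6 to 29.8 CPM in WT), of NK and innate lymphoid markers 2 of 5 (22.4 to 38.4 CPM in KO, 23.6 to 33.1 CPM in WT) and of erythroid and stromal markers 3 of 5 (96.0 to 121 CPM in KO, 97.7 to 113 CPM in WT). Cd8a, Csf1r, Spi1, Lyz2, Cd68, Ncr1, Klrb1c and Nkg7 had no promoter peak, and KO and WT ranges overlapped for every marker list that had 1.

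KO libraries differed from WT libraries at single broad elements, some more open and fewer less open, while no shift of the broad class as a whole was detected. All 1334 broad peaks held enough counts to be tested. Of these, 90 rose in KO (6.75%) and 36 fell (2.70%) by edgeR's quasi-likelihood test at a Benjamini-Hochberg adjusted p under 0.05, where 2.94% of all 34910 tested peaks rose and 0.911% fell (3.85% in either direction). Among the narrower non-promoter peaks 17419 could be tested, and 734 rose (4.21%) and 227 fell (1.30%). Of 4920 promoter peaks of 500 bp or more, 19 rose and 7 fell, 0.528% together. In bulk libraries, more cells with an open site and a more open site per cell cannot be told apart.

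The changes were moderate. The median log2 fold change (KO over WT) was 0.63 among the 90 rises and -0.44 among the 36 falls, and 16 rises but 0 falls reached 2-fold. Among the narrower peaks, 316 of 734 rises and 31 of 227 falls reached 2-fold, with medians of 0.94 and -0.74. The broad peaks carried more counts and a smaller error (median SE 0.106, against 0.220 for the tested narrower ones), so a smaller fold could pass. Over all broad peaks the median log2 fold change was -0.01 with quartiles of -0.12 and 0.11, and over all tested nuclear peaks it was -0.01 with quartiles of -0.14 and 0.15. The 2 groups of libraries did not overlap in 7.57% of broad peaks, against 3.96% of all tested peaks. DESeq2 called 48 rises and 8 falls among the broad peaks, all of them also called by edgeR, where it called 0.998% of all the peaks it tested. With libraries that differed by no more than Poisson noise merged, 66 broad peaks rose and 24 fell. In that fit 824 narrower non-promoter peaks rose and 218 fell, and its share over all tested peaks is not given here.

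**Figure D1:**
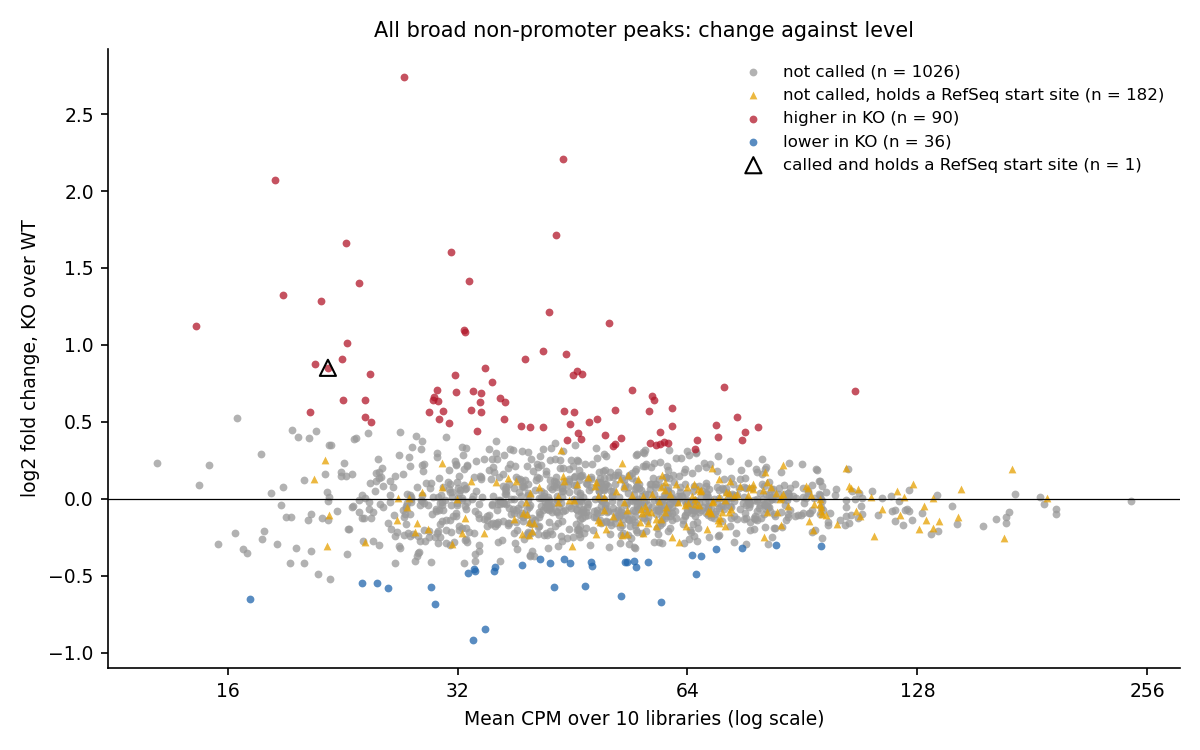
Log2 fold change (KO over WT) of all 1334 broad non-promoter peaks against their mean CPM over 10 libraries (log axis), coloured by call, with triangles for peaks that hold a RefSeq start. The 90 rises reach 2.74 and the 36 falls -0.92, and the called peaks with a start number 1.

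As a class, broad peaks took shares of each library that overlapped between groups. They held 6.85%, 6.42%, 6.75%, 6.93% and 6.67% of the nuclear in-peak counts in the 5 KO libraries, against 6.58%, 6.94%, 6.85%, 6.58% and 6.64% in the 5 WT libraries. The lowest share was that of Sample_2269_KO. The means were 6.73% ± 0.196 in KO and 6.72% ± 0.164 in WT (SD, n = 5 each), a difference of 0.00749 percentage points (two-sided exact permutation over 252 assignments, p = 0.929, adjusted 0.929). The log2 ratio of counts in broad over narrower non-promoter peaks was -2.29 ± 0.060 in KO and -2.27 ± 0.022 in WT (SD, n = 5; exact permutation p = 0.556, adjusted 0.929). Neither measure was distinguishable between groups at this spread, and the smallest p that the design allows is 0.00794.

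**Figure D2:**
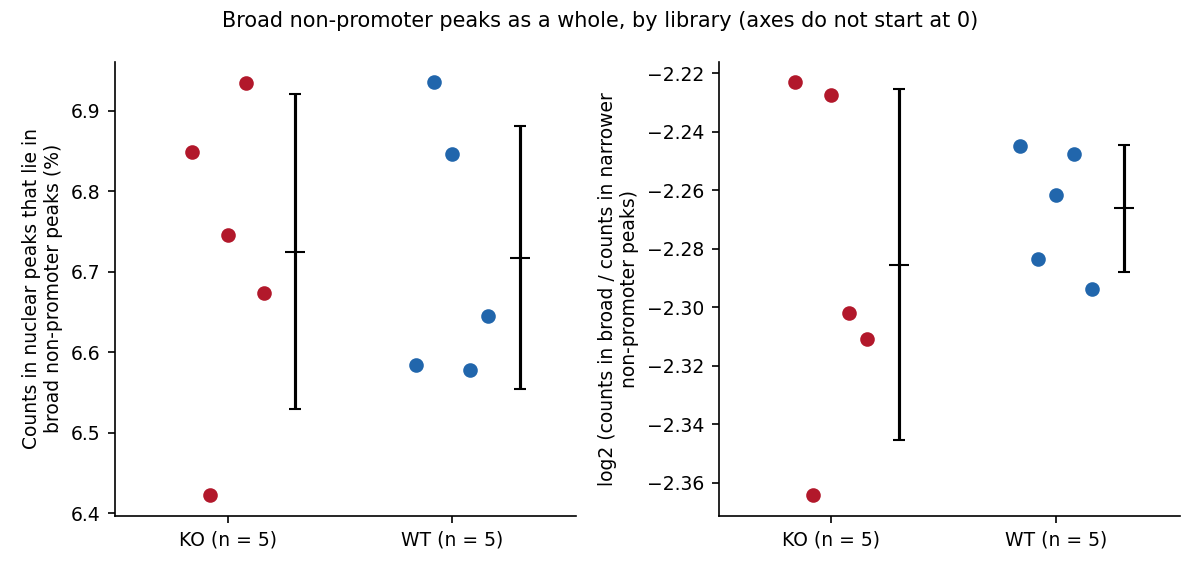
Percent of nuclear in-peak counts in broad non-promoter peaks (left) and log2 ratio of counts in broad over narrower non-promoter peaks (right), 1 point per library, with mean ± SD beside each group of 5. KO spans 6.42% to 6.93% and WT 6.58% to 6.94%, so the groups overlap.

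The share of peaks called differed with where they lay. Broad peaks without a RefSeq start changed in 125 of 1151 cases (89 up, 36 down, 10.9%), and those with a start in 1 of 183 (0.546%). The narrower peaks differed the same way, with 952 of 17008 tested peaks without a start called (5.60%) and 9 of 411 with one (2.19%). By class, 42 of 465 broad intronic peaks rose and 21 fell, and 42 of 550 distal intergenic peaks rose and 11 fell. Broad exonic peaks gave 4 rises and 4 falls among 91, 5′ UTR peaks 1 rise and 0 falls among 183, downstream peaks 1 rise among 18, and 3′ UTR peaks 0 among 27 (3 at an unadjusted edgeR p under 0.05, and 0 by DESeq2 or limma-voom). Of the 183 in 5′ UTRs, 126 hold a RefSeq start and 0 of these were called. Among the 57 in 5′ UTRs without a start, 1 rose and 0 fell (1.75%), so few were called there as well. These shares are descriptions across peaks, which are not independent, and their differences were not tested. Broad peaks with a start also had a higher median level (62.3 CPM, against 47.8 CPM without) and width (626 bp, against 574 bp). At 16 to 32 CPM 33 of 234 broad peaks were called, 32 of them among the 216 without a start. At 32 to 64 CPM it was 75 of 714, all among the 636 without a start. At 64 to 128 CPM it was 17 of 353, all among the 277 without one. From 500 bp to under 600 bp 88 of 793 were called, 87 of them among the 712 without a start. From there to under 800 bp it was 34 of 443, all among the 371 without one. Place was not tested apart from level and width.

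Width beyond the threshold did not go with more change. The share called was 3.995% of 12665 tested non-promoter peaks under 300 bp, 9.47% of 3189 from 300 bp to under 400 bp and 9.78% of 1565 from there to under 500 bp. It was 11.1% of 793 peaks from 500 bp to under 600 bp, 7.67% of 443 to under 800 bp and 5.06% of 79 to under 1000 bp. None of the 19 peaks of 1000 bp or more was called by edgeR, DESeq2 or limma-voom, and 0 had an unadjusted edgeR p under 0.05. The last 2 classes hold few peaks. In the 10 bp just inside the threshold 6 of 107 peaks rose and 5 fell, and in the 10 bp just outside it 11 of 107 rose and 1 fell. Among the broad peaks, width ran with level (Spearman 0.48 across 1334 peaks, which share libraries) and hardly with the size of the change (-0.11).

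**Figure D3:**
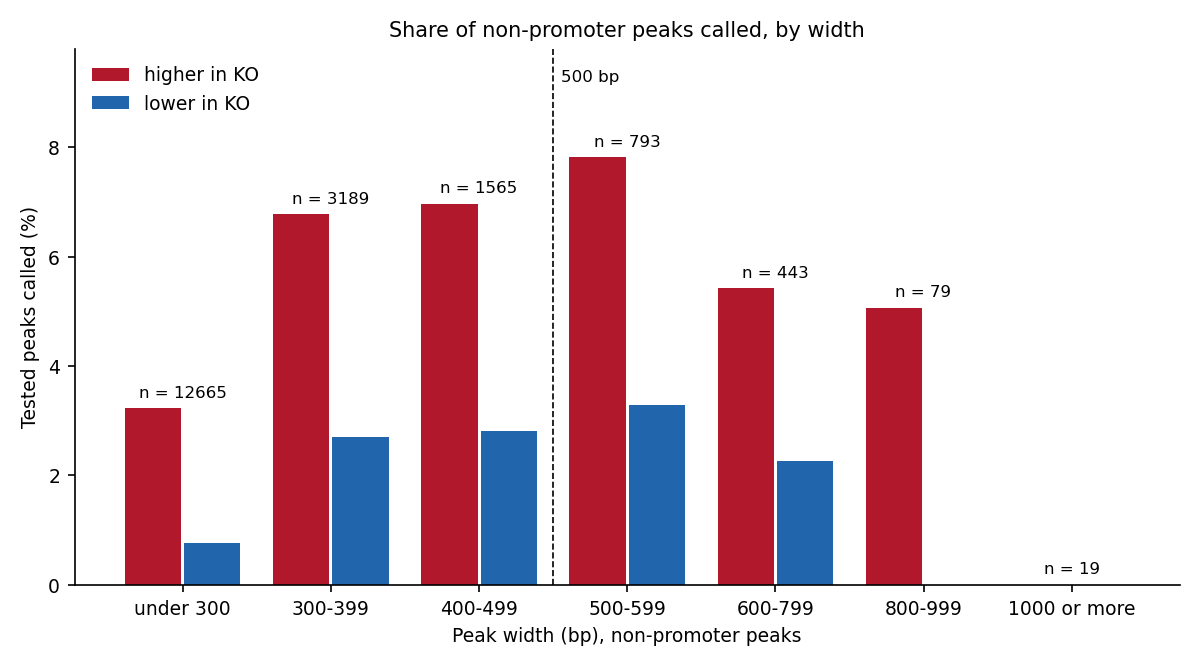
Percent of tested non-promoter peaks called higher (red) and lower (blue) in KO by peak width in bp, with the number of tested peaks above each pair and the 500 bp threshold dashed. Together the pairs reach 11.1% from 500 bp to under 600 bp and 0 of 19 at 1000 bp or more.

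Because wide peaks hold more counts, broad and narrower peaks were also set side by side at like level. At 16 to 32 CPM, 11.5% of 234 broad peaks rose, against 5.84% of 4472 narrower ones, and 2.56% of broad against 2.24% of narrower peaks fell. At 32 to 64 CPM 7.28% of 714 broad and 4.05% of 1382 narrower peaks rose, and 3.22% of broad and 2.098% of narrower peaks fell. In the next range, which starts at 64 CPM and where only 82 narrower peaks lie, 2.83% of 353 broad peaks and 2.44% of the narrower ones rose, and 1.98% of broad and 0% of narrower peaks fell. Broad peaks were thus called more often than narrower peaks in the 2 lower ranges and about equally for rises in the third, a comparison across peaks with no test. Within these ranges broad peaks still lay higher: the median CPM at 16 to 32 was 27.2 for broad and 21.1 for narrower peaks.

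**Figure D4:**
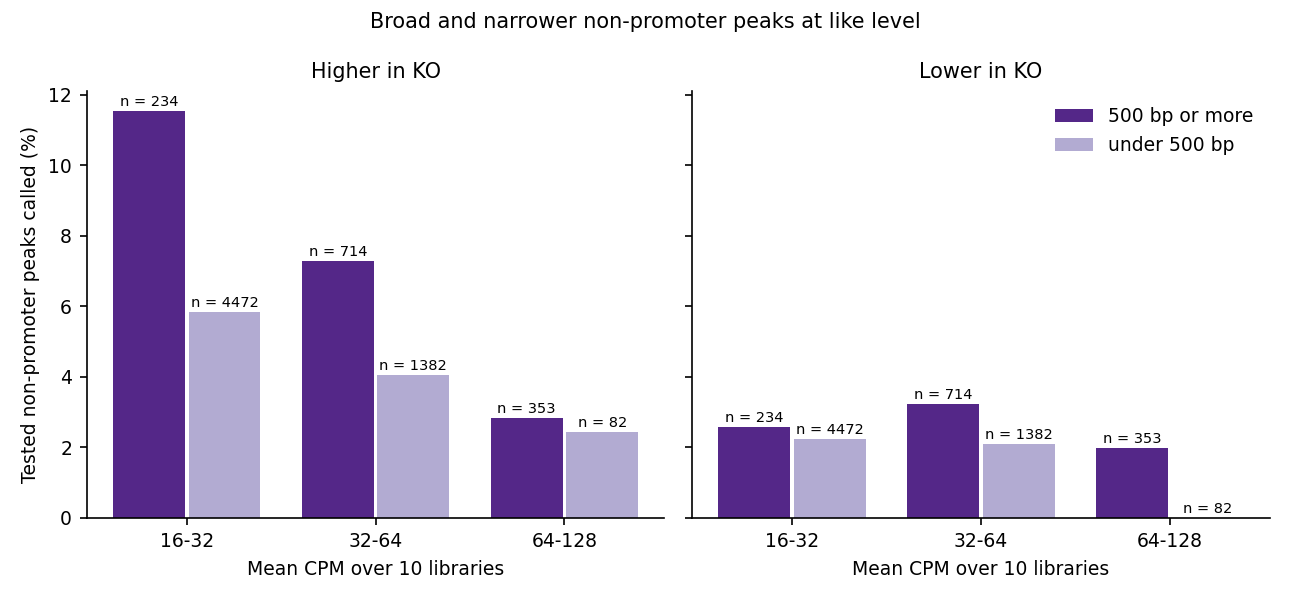
Percent of tested broad (dark) and narrower (light) non-promoter peaks called higher (left) and lower (right) in KO, within ranges of mean CPM over 10 libraries. The pair for rises at 16 to 32 CPM stands at 11.5% of 234 and 5.84% of 4472.

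Of the 7 broad peaks in the list of costimulation and inhibition, 3 rose and 0 fell, where 6.75% of all broad peaks rose and 2.70% fell. The list was written with earlier results of these data known, so this count only describes its members and was not tested. The largest log2 fold change of all called broad peaks was that near Tnfsf18, and the tenth was that near Ctla4. Tnfsf18, which encodes the ligand of the T cell receptor GITR, has its broad distal peak 14302 bp upstream of its start (chr1:161479803-161480355, mm10). It held 48.0, 35.5, 56.7, 53.7 and 44.4 CPM in the KO libraries, against 6.52, 6.07, 10.4, 7.15 and 4.05 CPM in the WT libraries. Every KO library was more than 3 times as high as the highest WT library. The means were 47.6 ± 8.32 CPM in KO, against 6.85 ± 2.32 CPM in WT (SD, n = 5), a log2 fold change of 2.74 ± 0.18 SE (edgeR adjusted p = 7.89e-22). The neighbouring gene on the other side is Tnfsf4, 61597 bp away, which encodes OX40 ligand, and no other tested peak lies within 10000 bp.

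Ctla4, the inhibitory receptor that competes with CD28 for its ligands, has a broad peak 9927 bp upstream (chr1:60898569-60899098). It stood at 31.99, 29.2, 26.7, 34.0 and 28.4 CPM in KO libraries, against 11.95, 15.5, 12.01, 9.29 and 12.8 CPM in WT libraries, with no overlap (log2 fold change 1.29 ± 0.16 SE, edgeR adjusted p = 5.64e-09). Neither of the 2 tested Ctla4 promoter peaks passed. Tigit, another inhibitory receptor of T cells, has 3 broad peaks, all annotated as intronic. The deposited annotation places 1 of them in an intron of Zbtb20, whereas no RefSeq coding gene covers it. Only that peak rose (38.6 ± 5.78 CPM in KO, 29.3 ± 5.78 CPM in WT, SD, n = 5, edgeR adjusted p = 0.0395). Its KO and WT libraries overlapped, and the call ended with DESeq2 (0.688), limma-voom (0.0551) and merged libraries (0.124). It also ended without Sample_2270_KO, Sample_2271_KO, Sample_2274_WT, Sample_2275_WT or Sample_2277_WT (0.0686 to 0.331). The broad peaks of Cblb, a ubiquitin ligase that restrains T cell activation, and of the early activation gene Cd69 did not pass.

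Cxcr4, the receptor for the homing chemokine CXCL12, has 3 broad distal peaks. That at 112778 bp upstream (chr1:128705077-128705587) held 36.0, 30.2, 36.7, 41.5 and 28.9 CPM in KO, against 10.9, 12.7, 7.84, 11.4 and 12.2 CPM in WT, with no overlap (log2 fold change 1.66 ± 0.17 SE, edgeR adjusted p = 2.15e-12). Of the other Cxcr4 elements, the one at 174421 bp upstream averaged 46.2 ± 3.34 CPM in KO, against 36.7 ± 3.304 CPM in WT and that at 22488 bp upstream 98.4 ± 13.7 CPM in KO, against 82.6 ± 5.01 CPM in WT (SD, n = 5). In the first of these every KO library lay above every WT library, but neither passed (edgeR adjusted p = 0.112 and 0.207), and the 3 tested Cxcr4 promoter peaks did not either. Thus the element that opened was the lowest of the 3 in WT.

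A peak between Il10ra, which encodes the signalling chain of the interleukin-10 receptor, and Tmprss13, a membrane serine protease gene, rose as well (chr9:45294143-45294840, 24994 bp from Il10ra and 24148 bp from Tmprss13, to which it is annotated). It held 72.8, 68.8, 78.3, 76.0 and 67.4 CPM in KO, against 16.3, 13.2, 20.4, 10.7 and 16.2 CPM in WT (log2 fold change 2.21 ± 0.13 SE, edgeR adjusted p = 3.85e-24). KO and WT values were far apart, and neither of the 2 tested neighbours within 10000 bp passed. An intronic peak of Il6ra, the ligand-binding chain of the interleukin-6 receptor, averaged 27.0 ± 3.14 CPM in KO, against 18.3 ± 2.56 CPM in WT (SD, n = 5, edgeR adjusted p = 0.0038). Its libraries did not overlap, and its call ended with DESeq2 (0.246) and without Sample_2271_KO (0.0665). Named after their values were seen, a peak 13092 bp upstream of Ifngr1, the interferon-gamma receptor chain that binds the cytokine, averaged 89.7 CPM in KO, against 53.1 CPM in WT, and a peak annotated to the chemokine receptor gene Cxcr6, in an intron of Fyco1, 51.9 CPM in KO, against 36.4 CPM in WT (edgeR adjusted p = 6.60e-09 and 0.000141). A broad peak 15623 bp upstream of Ccr7, the lymph node homing receptor of naive T cells, went the other way. It averaged 62.8 ± 3.41 CPM in KO, against 76.8 ± 13.6 CPM in WT (edgeR adjusted p = 0.0355), with overlapping libraries. This call ended with DESeq2 (0.467), limma-voom (0.0949), merged libraries (0.158) and a minimum mean count of 50 (0.0898). It also ended without Sample_2269_KO, Sample_2271_KO, Sample_2272_KO, Sample_2274_WT, Sample_2275_WT or Sample_2276_WT (edgeR adjusted p 0.0626 to 0.168).

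Gata3, the factor that specifies T helper 2 cells and early T cells, has a broad peak 284194 bp from the annotated start (chr2:9593888-9594406) in an intron of another transcript. It stood at 106, 83.4, 103, 93.1 and 78.3 CPM in KO, against 65.2, 67.3, 72.1, 61.5 and 60.8 CPM in WT, with no overlap (log2 fold change 0.46 ± 0.09 SE, edgeR adjusted p = 0.000373). None of the 4 tested Gata3 promoter peaks passed. Irf8, an interferon regulatory factor best known from myeloid cells and B cells, has a broad peak 20644 bp upstream that averaged 19.8 ± 3.44 CPM in KO, against 9.29 ± 2.96 CPM in WT (log2 fold change 1.12 ± 0.20 SE). Zfp608, a zinc finger gene, has one 557183 bp upstream, at 48.1 ± 3.42 CPM in KO, against 18.2 ± 1.93 CPM in WT (1.41 ± 0.13 SE). A peak annotated to Rev1, a translesion DNA polymerase gene, in fact lies in an intron of Aff3, a lymphoid transcription elongation factor gene, and averaged 26.4 ± 5.45 CPM in KO, against 11.5 ± 1.54 CPM in WT (1.32 ± 0.18 SE, SD over n = 5).

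The other large rises lay at genes of varied function. The deposited annotation places 1 peak in an intron of Mmd, a gene known from macrophage differentiation, but by RefSeq it lies 23917 bp outside that gene. It averaged 29.6 ± 3.56 CPM in KO, against 7.29 ± 1.64 CPM in WT (SD, n = 5), a log2 fold change of 2.07. A distal peak annotated to Akap11, which anchors protein kinase A, stood at 47.5 ± 5.61 CPM in KO, against 15.2 ± 3.32 CPM in WT (1.605), with 1 tested neighbour within 10000 bp that rose as well. The gene on its other side, 151068 bp away, is Tnfsf11, which encodes RANK ligand. Eml4, a microtubule-binding protein gene, had a distal peak at 34.4 ± 4.89 CPM in KO, against 13.2 ± 3.51 CPM in WT (1.40), Parp11, an ADP-ribosyltransferase gene, one at 59.1 ± 3.88 CPM in KO, against 25.2 ± 1.70 CPM in WT (1.215), and Vps45, a vesicle trafficking gene, an intronic one at 69.8 ± 9.87 CPM in KO, against 31.3 ± 4.07 CPM in WT (1.15). A peak in an intron of Cox10, named after its values were seen because its deposited row has no symbol, averaged 65.7 ± 9.14 CPM in KO, against 20.4 ± 6.39 CPM in WT (1.71), and one in an intron of the survival gene Bcl2 57.8 CPM in KO, against 31.0 CPM in WT (0.94). In each peak of this set, every KO library lay above every WT library, which the rule required of all but the Cox10 and Bcl2 peaks.

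By annotated symbol, Prkch, which encodes the T cell signalling kinase PKC-eta, was the only gene with more than 1 broad rise. Its 2 intronic peaks averaged 58.6 CPM in KO, against 43.6 CPM in WT, and 52.9 CPM in KO, against 39.2 CPM in WT (edgeR adjusted p = 0.0417 and 0.00647). An intronic peak of Ptpn22, a phosphatase that dampens T cell receptor signalling, averaged 70.4 CPM in KO, against 44.5 CPM in WT (edgeR adjusted p = 1.24e-06). Both genes are named after their values were seen.

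Broad peaks that closed kept much of their signal. The largest fall was annotated to Ankrd2, an ankyrin repeat gene of muscle, but lies in an intron of Ubtd1 (chr19:42019001-42019584). It held 20.8, 17.7, 28.3, 28.2 and 23.5 CPM in KO, against 32.6, 55.2, 49.6, 37.2 and 42.6 CPM in WT. The highest KO library was below the lowest WT library, Sample_2273_WT (log2 fold change -0.92 ± 0.13 SE, edgeR adjusted p = 3.78e-07). An intronic peak of Mad1l1, the spindle checkpoint protein MAD1 (chr5:140215412-140216100), held 21.6, 22.9, 26.7, 28.2 and 24.95 CPM in KO, against 42.4, 48.6, 47.5, 41.5 and 43.2 CPM in WT, without overlap (-0.85 ± 0.12 SE, edgeR adjusted p = 2.66e-07). A peak in an intron of Ago2, the slicer of RNA interference, annotated to the neighbouring Chrac1 23678 bp away, a chromatin accessibility complex subunit gene, averaged 45.7 ± 7.67 CPM in KO, against 72.4 ± 11.96 CPM in WT (-0.67, SD, n = 5).

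The other 9 falls named by the same rule were smaller than that of Mad1l1. They were annotated to Tshz1 (-0.69), a homeobox zinc finger gene, Soat2 (-0.65), a cholesterol acyltransferase gene, Fbln1 (-0.63), an extracellular matrix gene, Zfp800 (-0.57), Tspan11 (-0.57, in an intron of Tspan9), Rpa1 (-0.49), a single-stranded DNA-binding protein gene, Atp8a2 (-0.47), Cenpv (-0.47, in an exon of Pigl) and Skp1a (-0.41), all log2 fold changes. The Fbln1 peak, for instance, averaged 40.5 ± 3.36 CPM in KO, against 64.3 ± 2.06 CPM in WT (SD, n = 5, edgeR adjusted p = 2.72e-06). Every KO library lay below every WT library in each of them, which the rule required. DESeq2 did not call those of Soat2, Tspan11, Atp8a2, Cenpv and Skp1a (adjusted p 0.110 to 0.302). The Soat2 call ended without Sample_2268_KO, Sample_2269_KO, Sample_2271_KO or Sample_2274_WT (edgeR adjusted p 0.0517 to 0.0709), that of Cenpv without Sample_2268_KO (0.0672) or Sample_2272_KO (0.0625), that of Atp8a2 without Sample_2272_KO (0.0730) and that of Skp1a without Sample_2275_WT (0.0930) and with merged libraries (0.0552).

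**Figure D5:**
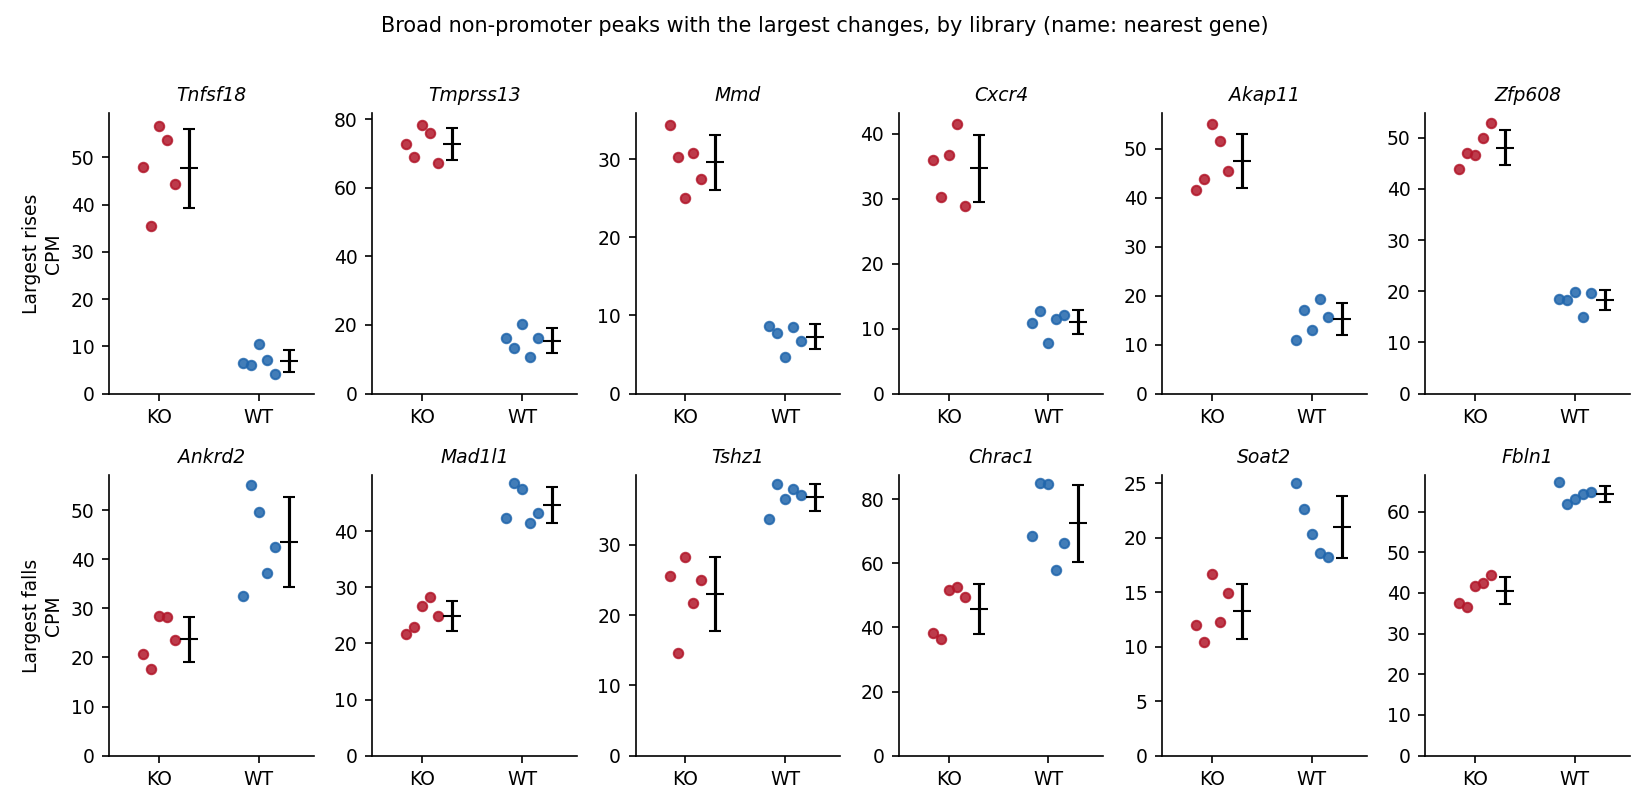
CPM of the broad non-promoter peaks with the 6 largest rises and the 6 largest falls under the naming rule, 1 point per library, KO left of WT, with mean ± SD beside each group of 5 and each axis from 0. In every panel KO and WT points do not overlap, as the rule required, and the rises leave wider gaps, as at Tnfsf18 with 47.6 CPM in KO, against 6.85 CPM in WT.

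The counts of the other gene lists are to be read against the 9.45% of all broad peaks that were called. In the list of T cell identity and receptor signalling, 1 of 13 broad peaks rose (Gata3) and 0 fell, and those that did not pass include the peaks of Cd3d, Ets1, Ikzf1, Lef1, Ptprc, Tcf7 and Zap70. The 826 bp peak 30836 bp upstream of Tcf7, which encodes the naive T cell factor TCF-1, averaged 113 ± 10.8 CPM in KO, against 126 ± 14.7 CPM in WT (edgeR adjusted p = 0.545). In the naive and quiescence list, 1 of 14 rose (Il6ra) and 1 fell (Ccr7). All 4 broad peaks of Bach2, a repressor of effector genes, averaged between 45.4 and 56.8 CPM in KO, against 48.0 to 56.9 CPM in WT. None of these 4 passed with edgeR, and 0 had an unadjusted p under 0.05. Likewise 0 of the 6 broad peaks of helper cytokines and fate factors passed with edgeR, DESeq2 or limma-voom, and 0 at an unadjusted edgeR p under 0.05, among them those near Ifng, Irf4, Maf, Prdm1, Batf and Tbx21.

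Of 4 broad peaks in the trafficking list 1 rose (Cxcr4), of 4 in the survival list 0 passed (2 at an unadjusted edgeR p under 0.05, 0 by DESeq2 or limma-voom), and of 7 in the list of DNA-binding and chromatin regulators 1 rose (Zfp608). Fasl, the death ligand gene of the survival list, has 3 broad peaks, of which that at 53298 bp from the start averaged 62.3 ± 4.80 CPM in KO, against 50.4 ± 6.84 CPM in WT (edgeR adjusted p = 0.0568). Over all lists, 7 of 55 broad peaks at 37 genes rose and 1 fell, with a median log2 fold change of 0.01. These are 12.7% and 1.82%, where 6.75% of all broad peaks rose and 2.70% fell, with a median of -0.01, and the lists were chosen with earlier results known. No broad non-promoter peak is annotated to Satb1 or Il2. The 26 narrower or promoter peaks annotated to Satb1 include 16 that were tested, of which 4 rose and 0 fell, where 2.94% of all tested peaks rose and 0.911% fell. Since the position of the floxed segment is not stated, accessibility is no check of its deletion. The nearest broad peak to Satb1 among those called, 329113 bp from it, averaged 132 CPM in KO, against 79.8 CPM in WT (edgeR adjusted p = 1.30e-08), and was named after its value was seen.

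The only called peak over a RefSeq start was that of Gm13572, whose sequence opens the set above. It covers an exon by the deposited annotation, which names Baz2b, a bromodomain gene whose start lies 88210 bp away. It held 28.8, 27.1, 28.3, 27.1 and 27.4 CPM in KO, against 18.5, 14.9, 15.7, 16.4 and 12.2 CPM in WT, with no overlap and little spread in KO (log2 fold change 0.85 ± 0.16 SE, edgeR adjusted p = 6.95e-05). At the CpG-poor Gm51814 start, 46593 bp from Tnfaip3, the inhibitor of NF-kappaB signalling A20, the peak averaged 183 ± 18.3 CPM in KO, against 157 ± 13.0 CPM in WT (edgeR adjusted p = 0.315). D130051D11Rik averaged 152 ± 22.6 CPM in KO, against 180 ± 44.2 CPM in WT, Gm2885 130 ± 11.3 CPM in KO, against 143 ± 11.6 CPM in WT, and Gm26901 128 ± 8.40 CPM in KO, against 133 ± 7.47 CPM in WT (SD, n = 5 each), and none of the 4 passed.

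The widest and strongest elements did not pass the test. The widest, 1491 bp, lies 56403 bp upstream of Arid1a, a chromatin remodeller subunit gene (chr4:133813172-133814662), and averaged 189 ± 20.0 CPM in KO, against 201 ± 31.6 CPM in WT (SD, n = 5, edgeR adjusted p = 0.841). The next, of 1414 bp near Zfp958, had the highest level of all broad peaks, at 243 ± 15.2 CPM in KO, against 245 ± 13.3 CPM in WT. Peaks of 1256 bp near the forkhead gene Foxj2 and of 1142 bp between the interferon receptor genes Ifnar1 and Ifngr2 stood at 186 ± 14.8 CPM in KO against 184 ± 7.75 CPM in WT, and at 163 ± 13.9 CPM in KO against 174 ± 18.5 CPM in WT. None of the 28 broad peaks of 128 CPM or more was called by any of the 3 tools (edgeR, DESeq2, limma-voom), though 4 had an unadjusted edgeR p under 0.05, and no narrower peak lies there. Genes with the most broad peaks were Kbtbd11, Ywhaz and Bach2 with 4 each and Fasl and Ezr with 3 each. Among these 18 peaks 1 near Ywhaz, a 14-3-3 protein gene, and 1 in an intron of Ezr, which encodes the membrane linker ezrin, rose by edgeR (adjusted p = 0.0203 and 0.0274), where 6.75% of all broad peaks rose. Neither was called by DESeq2 (0.319 and 0.434) or with merged libraries (0.145 and 0.173). The Ywhaz call also ended without Sample_2268_KO, Sample_2269_KO, Sample_2273_WT or Sample_2275_WT (edgeR adjusted p 0.0656 to 0.0885), and that of Ezr without Sample_2268_KO, Sample_2270_KO, Sample_2271_KO, Sample_2273_WT, Sample_2275_WT or Sample_2276_WT (0.0581 to 0.143).

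Broad peaks were spread thinly, with a median of 200040 bp to the next broad peak and 51 of 1334 within 10000 bp of one, but 80.1% had some other peak that near. Around the 90 rises, 101 other peaks within 10000 bp were tested, of which 8 rose (7.92%, against 2.94% of all tested peaks) and 0 fell. Around the 36 falls, 36 were tested, of which 0 rose and 1 fell (2.78%, against 0.911% of all tested peaks). Most tested neighbours did not pass. Around the rises a larger share of neighbours than of all peaks rose, a description across peaks with no test. Around the falls the share rests on 1 neighbour, beside the Ccr7 peak, whose own call ended with DESeq2 and limma-voom. A promoter peak of the annotated gene was tested for 63 rises, and in 2 of these a promoter peak rose too. None passed for the 25 falls with 1 tested (6 of their 38 promoter peaks at an unadjusted edgeR p under 0.05, 0 by DESeq2 or limma-voom). Among all 16147 tested promoter peaks 1.26% rose and 0.341% fell, and no difference from these shares was tested. The rises fell to 71 named genes and the falls to 31, with 0 in common. Of the rises that the deposited annotation places inside a named gene, 24 lie in the gene they are annotated to and 18 in another, and of such falls 14 and 11. A gene name here states the nearest start, not a target.

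Every chromosome but Y held broad peaks, from 2.87% of the non-promoter peaks on chromosome 16 to 4.404% on chromosome 13. None of the 19 on the X chromosome was called by edgeR, DESeq2 or limma-voom, and 1 had an unadjusted edgeR p under 0.05. Of all 1334 broad peaks, edgeR called 9.45%, and the difference was not tested.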

How the data were processed

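ATAC-seq libraries of 5 KO and 5 WT samples were compared. The deposited table holds whole-number read counts per peak of 1 common set, not normalized, and a second deposited table gives each peak's place and nearest gene. Per the submitters' processing notes, tools included Trimmomatic 0.36, Bowtie2 2.3.5, Picard, SAMtools 1.9, MACS2 2.1.2, DESeq2 1.22.2 and ChIPseeker 1.18.0, with mm10 as the build. The sources used here do not give any shift of reads to the cut site, any removal of duplicates, or whether libraries were pooled for peak calling. Removed duplicates would cap dense peaks, and peak borders set the widths on which members were chosen.

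Counts of all 61581 peaks were fitted with edgeR 4.0.16 in R 4.3.3 (TMM scaling, filterByExpr, glmQLFit, glmQLFTest, no covariate), and p-values were adjusted over all 34910 tested peaks at 0.05. CPM are edgeR's counts-per-million of the TMM-scaled in-peak total, and SE is derived from the F statistic, so it is approximate. The fit was tested on simulated data. RefSeq gene IDs (GRCm38.p6) matched 16443 of 16457 deposited ones. Totals per library and in-class ratios were compared by two-sided exact permutation. Alternatives used DESeq2 1.42.0, limma 3.58.1 (voom), other filters, widths and libraries.

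Named peaks are the 8 widest, the 6 of highest level, the 12 largest called changes per direction whose libraries do not overlap (1 per symbol, without Gm, LOC, Rik or missing symbols), the 5 genes with most broad peaks, and up to 3 called peaks per gene list. Members and lists were chosen with earlier results of these data known. Peak sequences beyond RefSeq start windows were not used here.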

Additional observations from a re-analysis of the deposited data

Results flagged for a closer look

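Of 116 groups of 5 libraries examined, 3 held a library far from the other 4, where chance flags about 1 in 20. In the peak annotated to Rev1, Sample_2273_WT was high at the top of a WT range of 10.4 to 14.1 CPM, with a gap of 0.73 of that range. In the intronic Il6ra peak the same library was high in a WT range of 16.7 to 22.8 CPM (gap 0.861). In the peak annotated to Fbrs, which did not pass the test, Sample_2276_WT was high in a WT range of 185 to 237 CPM (gap 0.847). In both called peaks every KO library lay above every WT library, which the naming rule required of the Rev1 peak.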

How the results depend on the processing

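Among broad peaks, DESeq2 called 56 (48 higher, 8 lower in KO), a minimum mean count of 50 left 68 (50 and 18), thinning to the smallest total 54 (38 and 16), a width of 400 bp or more gave 279 (199 and 80) and 600 bp or more 38 (28 and 10). Without the 3 libraries of lowest total 22 fell. Among narrower peaks DESeq2 called 397 (366 and 31), the count minimum left 42 (30 and 12) and thinning 191 (156 and 35). Thinning acts on fewer counts, the count minimum on fewer peaks, and the width settings on more peaks (400 bp) or fewer peaks (600 bp). These counts of calls therefore differ with the number of peaks and are not shares. Shares called by width step are given above. The cause of the DESeq2 difference was not tested. Leaving out 1 library gave 108 to 124 broad calls (74 to 92 higher, 25 to 42 lower) and 790 to 1014 narrower ones. limma-voom, RLE scaling, no filter, no mitochondrial peaks, merged libraries and removal of peaks with a RefSeq start stayed within 1.5 times, and rises outnumbered falls throughout. KO minus WT ran over 16 alternatives each between -0.0679 and 0.0832 percentage points for the class share and between -0.0349 and 0.000385 for the log2 ratio. As a share of non-promoter counts the difference was -0.184 points (17.0% ± 0.587 in KO, 17.2% ± 0.214 in WT, SD, n = 5, exact permutation p = 0.556). Of 1047 alternative values of 56 named peaks, 979 kept their side of the threshold, 67 lost a call, 1 gained one (Fasl) and 0 changed sign. The Gata3 call was lost with thinning (edgeR adjusted p = 0.0682). No paired analysis was possible because the labels number all libraries in 1 run and pair none across groups. Depth limits folds near 1.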
